A study of Oryza sativa with 9 samples.

Results

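RBP-P is a rice (Oryza sativa) RNA-binding protein known to bind mRNAs that encode storage proteins of the seed. The loci described here are the chromosomal neighbours of its gene, LOC_Os01g16090, which spans positions 9063968 to 9066787 of chromosome 1. They are all loci of chromosome 1 whose start lies from 8565000 to 9565000 in the deposited table, without RBP-P itself. This window holds 140 loci, of 6529 on chromosome 1 and 55986 in the whole table. The rule uses position alone and no expression value. The genome build of the coordinates is not given in the sources used.

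Loci that lie close together on a chromosome tend to be inherited as a block. A line that is fixed for a mutation therefore also carries the flanking chromosome on which that mutation sits, with any other differences from the control that this stretch holds. The block ends where a crossover has separated it from the mutation, so neighbours are more likely to belong to it than distant loci of the same chromosome. The table records expression only, so inheritance was not measured, and distance from RBP-P was used in its place.

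RNA from dehulled developing seeds, 10 to 14 days after flowering, was sequenced in 3 genotypes with 3 biological repeats each. WT was the wild type, P1MH carried RBP-P with the change G401S, and P3MH carried RBP-P with the change A252T. All plants were grown at 27 °C in chambers with 12 h of light and 12 h of darkness. Each change was represented by 1 line. Neither the labels nor the file headers name the cultivar, the origin of the mutations or any backcrossing. The labels do not say whether repeats came from separate plants, so p-values measure the spread between these libraries.

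The values are RPKM, reads per kilobase of transcript scaled to the mapped reads of each library. The steps between low values gave library totals of 5865007 to 7498434 reads, at which 3 reads on a transcript of 1 kb are worth 0.400 to 0.512 RPKM. The 5 starchy endosperm loci used to check the tissue summed to 27498 to 34671 RPKM in the WT libraries, 42093 to 48731 in the P1MH libraries and 30350 to 35877 in the P3MH libraries. The 4 embryo or aleurone loci summed to 595 to 897, 1111 to 1649 and 841 to 1008 RPKM in the same order. The 3 green tissue loci summed to 139 to 165, 118 to 134 and 107 to 171 RPKM. The P1MH sums thus lay above all WT sums for the endosperm and the embryo or aleurone loci and below them for the green tissue loci. Single markers did not all follow their sum: the endosperm locus LOC_Os02g49410 fell in both lines, from 197 ± 16.6 RPKM to 121 ± 12.9 and 130.1 ± 17.0 (SD, n = 3 each; limma adjusted p = 0.0157 and 0.0464). The endosperm locus LOC_Os05g41970 had log2 fold changes of -0.13 in P1MH and -0.41 in P3MH (limma adjusted p = 0.786 and 0.350). In P1MH the endosperm loci LOC_Os01g55690 and LOC_Os10g26060 rose (limma adjusted p = 0.0464 and 0.0369). So did the embryo or aleurone loci LOC_Os11g26790, LOC_Os03g49190 and LOC_Os04g46200 (limma adjusted p = 0.00586, 0.0103 and 0.0318). None of these rises passed the test in P3MH. The green tissue locus LOC_Os12g17600 also fell in both lines (limma adjusted p = 0.00671 and 0.0405), which in P1MH is the direction of its sum. The part of these markers in the results below was not tested. In whole seeds, fewer cells of a type and less RNA per cell cannot be told apart. Over 5674 loci of the series whose length is their whole span, 1224 to 1278 values in each WT library stood for a number of reads that was not whole, beside 1 to 5 in each mutant library (tolerance 0.0001 reads plus 1e-05 of the value). The part of this difference in the results was not tested.

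Of the 140 members, 44 were listed at 0 in all 9 libraries, which is 31.4% against 38.1% of the 6388 remaining loci of chromosome 1. A further 36 were above 0 but stayed below the mean of 1 RPKM required for testing. The other 60 were tested, 42.9% of the members against 34.3% of the remaining loci. The tested members had a median level of 6.32 RPKM, with a range from 1.01 to 185, and 22 of them reached 10 RPKM. The 2194 tested loci of the rest of the chromosome had a median of 6.17 RPKM. Between 73 and 82 members were above 0 in any 1 library.

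The members together summed to 855 ± 30.8 RPKM in the WT libraries, 965 ± 133 in the P1MH libraries and 872 ± 43.4 in the P3MH libraries (SD, n = 3 each). Much of the P1MH sum came from 1 locus, LOC_Os01g16040. Without it the sums were 743 ± 18.2, 699 ± 50.1 and 697 ± 17.3 RPKM.

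The first comparison set P1MH against WT along the chromosome. Of the 60 tested members, 2 rose (LOC_Os01g15780 and LOC_Os01g16040) and 2 fell (LOC_Os01g16070 and LOC_Os01g16550), by limma at an adjusted p under 0.05. This is 6.67% of the members, beside 8.81% of all 16064 tested loci, of which 3.18% rose and 5.63% fell. On the rest of chromosome 1, 191 of 2194 loci were called, 8.71%, of which 78 rose (3.56%) and 113 fell (5.15%). The share of called members lay near both backgrounds. Rescaling each library by its median ratio gave 3 higher and 1 lower among the members, and 102 higher and 68 lower on the rest of the chromosome. This added LOC_Os01g15490 to the higher members and dropped LOC_Os01g16550 from the lower ones. Left without the third WT library, the fit called 1 member, and the rest of the chromosome gave 65 to 121 calls when any WT library was left out, 122 without the first P1MH library and 126 without the third.

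The members' fold changes in P1MH were spread more widely around zero than those of the other loci. The median size of the log2 fold change was 0.32 among members and 0.23 on the rest of the chromosome, while the signed medians were -0.05 and -0.09. All log2 fold changes here are on the scale of log2(RPKM + 1), which understates the change of low loci. At an unadjusted limma p under 0.05 stood 26 of the 60 members, 43.3%, beside 24.1% of the remaining loci and 24.7% of all tested loci. The 3 P1MH libraries did not overlap the 3 WT libraries for 25 members, 8 higher and 17 lower. This is 41.7% of members, beside 31.1% of the remaining loci and 31.2% of all, where 9.7% were higher and 21.5% lower. These shares are given as descriptions, and no test of the difference between them was made.

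The second comparison set P3MH against WT. Of the 60 tested members, 2 rose (LOC_Os01g15780 and LOC_Os01g16140) and 2 fell (LOC_Os01g16030 and LOC_Os01g16550). This is again 6.67%, beside 4.77% of all tested loci, of which 1.67% rose and 3.1% fell. On the rest of the chromosome 109 of 2194 loci were called, 4.97%, with 39 higher (1.78%) and 70 lower (3.19%). With the median-ratio rescaling the split was 3 higher and 0 lower among members, and 54 higher and 36 lower on the rest. The added higher member was LOC_Os01g16010, 51.0 kb before RBP-P. Without the second or the third WT library or the first P3MH library 2 members were called. The rest of the chromosome gave 35 to 49 calls when any WT library was left out, 60 without the first P3MH library and 48 without the second. The median size of the log2 fold change was 0.19 among members and 0.21 on the rest, and the signed medians were -0.14 and -0.12. An unadjusted limma p under 0.05 was reached by 19 members, 31.7%, beside 19.2% of the remaining loci and 19.9% of all. Groups did not overlap for 16 members, 26.7%, beside 27.9% of the remaining loci and 27.6% of all.

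**Figure D1:**
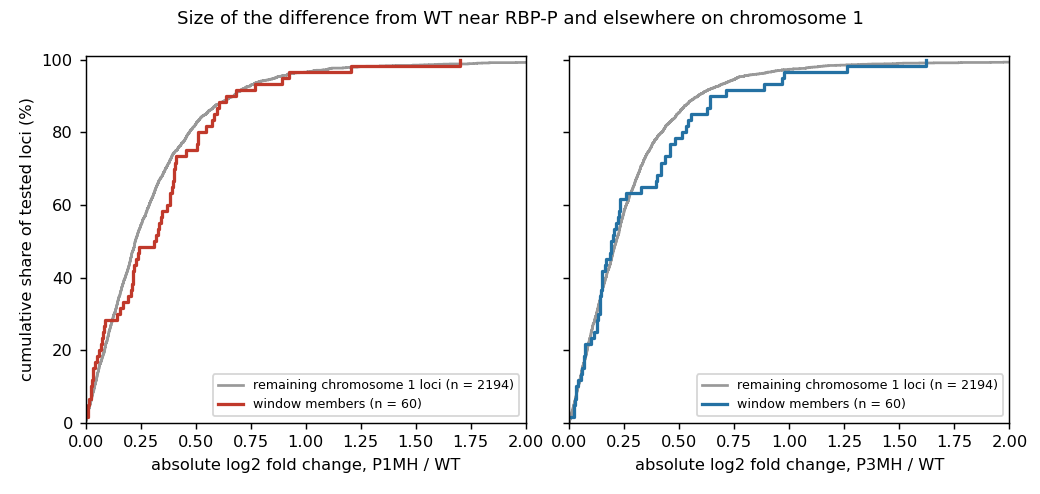
Cumulative share of loci (vertical axis, percent) by the size of the log2 fold change against WT (horizontal axis), for the tested window members and the remaining tested loci of chromosome 1, with P1MH and P3MH in separate panels. The median size is 0.32 for members and 0.23 for the rest in P1MH, and 0.19 against 0.21 in P3MH.

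The lines share their WT libraries, so their values are set side by side only. On the scale of log2(RPKM + 1), members past 1 in either direction numbered 2 in P1MH and 2 in P3MH. This is 3.33% each, beside 3.46% and 2.64% of the remaining loci. It is not a count of 2-fold changes in RPKM: LOC_Os01g15780, at 2.13 and 2.18 times WT in RPKM, is not among them. Among members the log2 fold change ran from -1.70 to 1.20 in P1MH and from -1.26 to 1.62 in P3MH. The third comparison set P1MH against P3MH directly. It called 1 member, LOC_Os01g16140, which was lower in P1MH. This is 1.67% of members, beside 0.0311% of all tested loci, or 5 of 16064, with 0.0187% lower. On the rest of chromosome 1 limma called 0 of 2194 loci (1 when only these lines were fitted, and 24 without the third P1MH library), and 284 of them had an unadjusted p under 0.05. The call of LOC_Os01g16140 was lost without the first P1MH library or the first or second P3MH library (limma adjusted p = 0.0628, 0.054 and 0.0521). Among members 8 had such a p, 13.3% beside 12.9% of the rest and 12.8% of all. Groups did not overlap for 10 members, 16.7% beside 15.2% of the rest and 15.3% of all.

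Next, the calls were placed by distance from the start of RBP-P. Within 50 kb lay 8 tested members, of which 2 were called in P1MH and 1 in P3MH, 25% and 12.5%, beside 8.81% and 4.77% of all tested loci. From 50 to 250 kb lay 25, with 1 called in P1MH and 2 in P3MH, 4% and 8%. From 250 to 500 kb lay 27, with 1 called in each line, 3.70%. At an unadjusted limma p under 0.05 stood 75%, 28% and 48.1% of these bands in P1MH and 50%, 20% and 37.0% in P3MH. The median size of the log2 fold change was 0.54, 0.22 and 0.32 in P1MH and 0.43, 0.20 and 0.16 in P3MH. The innermost band holds too few loci for its values to be read as a trend, and the member LOC_Os01g16140, at 50.03 kb, falls just beyond its limit.

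Outside the window the shares called did not fall steadily with distance. In P1MH they were 12.1% of 58 loci from 500 to 1000 kb, 15.1% of 86 loci from 1000 to 2000 kb, 8.79% of 239 loci from 2000 to 5000 kb and 8.28% of 1811 loci farther away. In P3MH they were 3.45%, 4.65%, 3.35% and 5.25% over the same bands. The bands next to the window were thus above the window itself in P1MH and below it in P3MH. By the unadjusted limma p, the bands outside the window had 24.1%, 29.1%, 24.7% and 23.7% in P1MH. In P3MH they had 19.0%, 20.9%, 16.3% and 19.5%. Their median sizes of the log2 fold change were 0.23, 0.25, 0.23 and 0.22 in P1MH and 0.20, 0.23, 0.20 and 0.21 in P3MH.

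**Figure D2:**
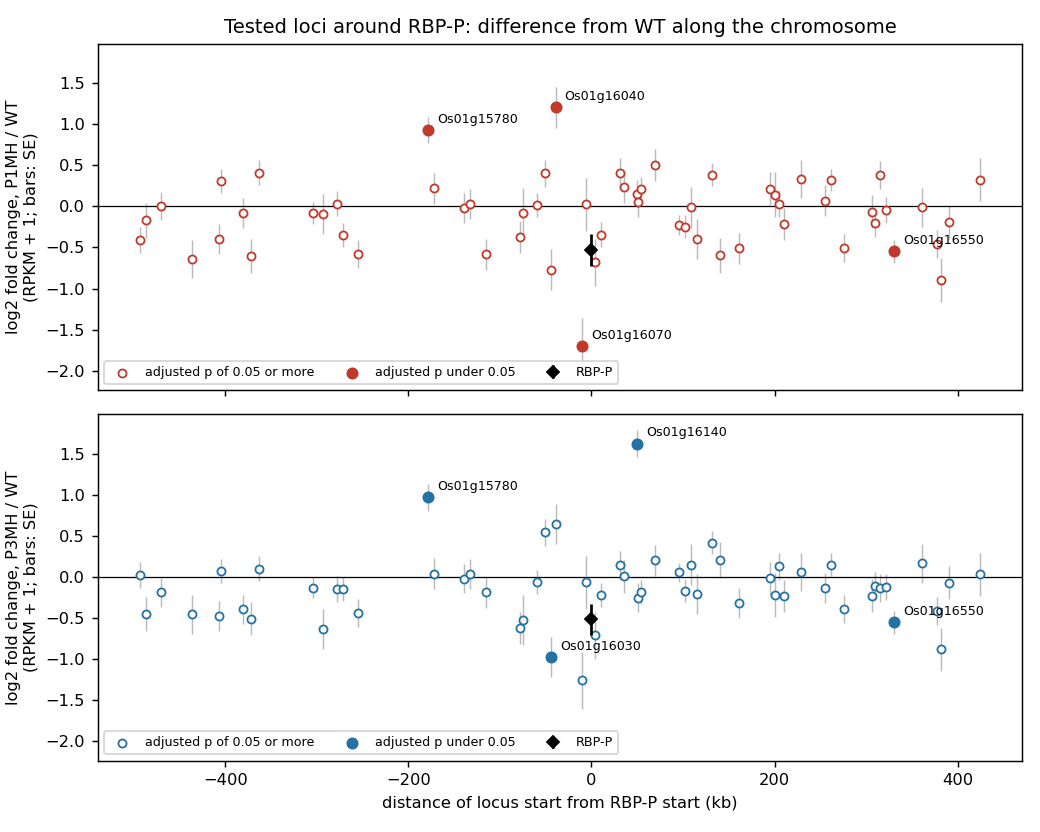
Log2 fold change against WT (vertical axis) of each tested locus by its distance from the start of RBP-P (horizontal axis), in separate panels for P1MH and P3MH, with called loci marked. Called members lie on both sides of RBP-P and on both sides of zero, and most members lie within 0.5 of zero (45 of 60 in P1MH and 47 in P3MH).

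Chromosome 1 was also divided into tiles of 1 Mb, of which 43 held at least 20 tested loci. The window straddles the tiles from 8 to 9 Mb and from 9 to 10 Mb, which also hold loci outside it. In P1MH these tiles had 13.5% and 7.69% of their loci called, beside a median of 7.94% over tiles, and 5 and 23 tiles had a higher share. Of the 7 loci called in the first, only LOC_Os01g15780 is a member. Of the 5 in the second, the members are LOC_Os01g16040, LOC_Os01g16070 and LOC_Os01g16550. In P3MH the tiles had 3.85% and 6.15%, beside a median of 4.17%, and 24 and 10 tiles had a higher share. Of the 2 loci called in the first, LOC_Os01g15780 is a member. Of the 4 in the second, the members are LOC_Os01g16030, LOC_Os01g16140 and LOC_Os01g16550. By the unadjusted p, the same tiles had 32.7% and 35.4% in P1MH (median 25%, 4 and 2 tiles higher) and 30.8% and 23.1% in P3MH (median 17.0%, 3 and 11 tiles higher). Their median sizes of the log2 fold change were 0.24 and 0.25 in P1MH (range over tiles 0.16 to 0.37, 16 and 12 tiles higher). In P3MH these were 0.28 and 0.18 (range over tiles 0.15 to 0.53, 4 and 38 tiles higher). The tile with the highest share called, 27.9% in P1MH and 21.3% in P3MH, was the one from 2 to 3 Mb, whose centre lies 6.56 Mb from RBP-P.

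**Figure D3:**
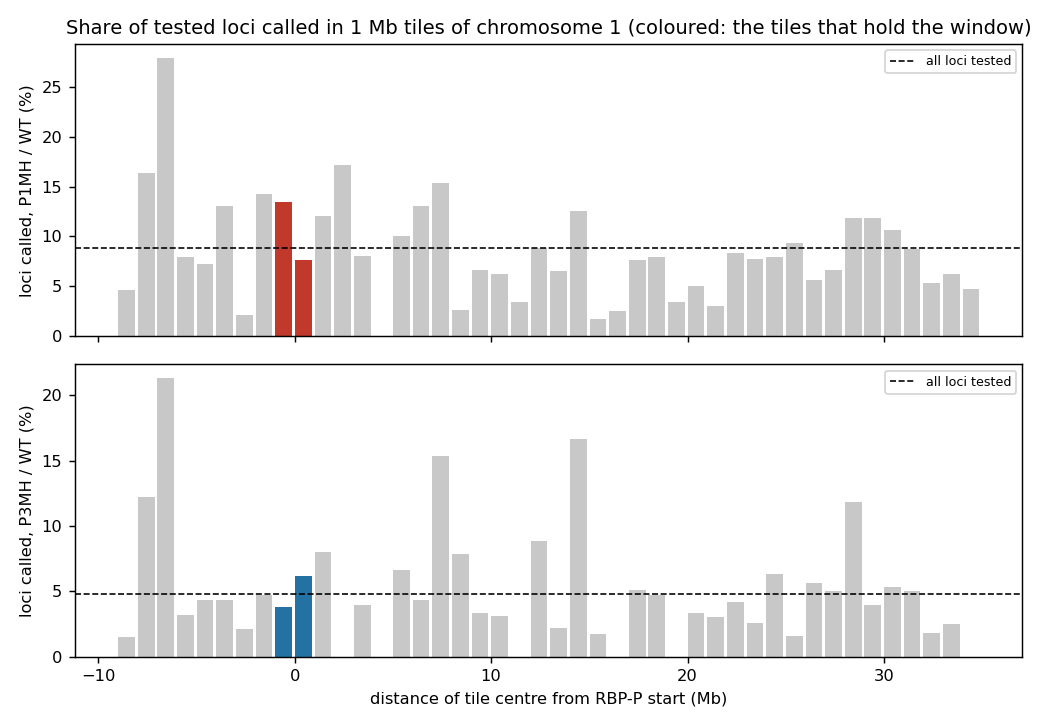
Percent of tested loci called by limma (vertical axis) in each 1 Mb tile of chromosome 1, by the distance of the tile's centre from RBP-P (horizontal axis), for P1MH and P3MH against WT. The tiles that hold the window, together with loci outside it, reach 13.5% and 7.69% in P1MH and 3.85% and 6.15% in P3MH. The highest tile lies 6.56 Mb away.

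The loci on either side of the window's edges were compared as a description. LOC_Os01g15310, the first member, had log2 fold changes of -0.41 in P1MH and 0.03 in P3MH, and its neighbour outside, LOC_Os01g15300, had -0.14 and -0.32. At the other end the last member, LOC_Os01g16800, was listed at 0 throughout, and LOC_Os01g16810 outside had 0.11 and 0.00.

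RBP-P itself had 13.9 ± 1.94 RPKM in the WT libraries, 9.43 ± 2.09 in the P1MH libraries and 9.50 ± 2.14 in the P3MH libraries (SD, n = 3 each). Against WT it had -0.53 in P1MH and -0.52 in P3MH on the log2 scale, short of the threshold (limma adjusted p = 0.107 and 0.151). All 6 mutant libraries, at 7.04 to 11.9 RPKM, lay below the 3 WT libraries, at 12.7 to 16.2, as was so for 10.9% of all tested loci. Since each allele alters an amino acid, transcript level is no check of the genotypes.

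The 6 members called in any comparison follow in the order of their distance from RBP-P. The deposited table gives them no name or function, and none was matched to a named gene. LOC_Os01g16070, on the plus strand at 9053511 to 9053928, lies 10.5 kb before RBP-P. It had 3.01, 3.46 and 5.21 RPKM in the WT libraries, 0, 0.423 and 1.26 in the P1MH libraries, and 0.422, 2.25 and 0.741 in the P3MH libraries. No mutant library reached the lowest WT library. For a fitted exon length of 366 bases these values stand for 30.5 reads over the WT libraries, 4 over P1MH and 8 over P3MH, so the locus rests on few reads. It fell by 1.70 on the log2 scale in P1MH (SE 0.35, limma adjusted p = 0.0101), a call lost without the third WT library (limma adjusted p = 0.0545). P3MH stood at -1.26 on the same scale (SE 0.35, limma adjusted p = 0.0596), and passed in 5 of the 16 alternatives in which the locus was fitted.

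LOC_Os01g16040, on the minus strand at 9024897 to 9028876, was the most abundant member and lies 39.1 kb before RBP-P. It had 132, 121 and 84.9 RPKM in the WT libraries, 360, 187 and 252 in the P1MH libraries, and 145, 212 and 170 in the P3MH libraries. Neither mutant overlapped WT, and the P1MH libraries varied widely among themselves. It rose by 1.20 on the log2 scale in P1MH (SE 0.25, limma adjusted p = 0.00996), from 113 ± 24.6 to 266 ± 87.7 RPKM (SD, n = 3 each). The call was lost without the third WT library, the lowest of the 9, with a log2 fold change of 1.02 (limma adjusted p = 0.0534). In P3MH the mean was 176 ± 34.0 RPKM and the log2 fold change 0.64 (SE 0.25, limma adjusted p = 0.166). The difference between the lines, 0.56, did not pass the test (limma adjusted p = 0.363).

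LOC_Os01g16030, its neighbour on the same strand at 9019841 to 9024052, ends 844 bases from it and lay lower in the mutants. It had 6.47, 7.29 and 6.13 RPKM in the WT libraries, 4.47, 3.36 and 2.74 in the P1MH libraries, and 2.56, 1.79 and 4.85 in the P3MH libraries. Every mutant library lay below every WT library. It fell by 0.97 on the log2 scale in P3MH (SE 0.25, limma adjusted p = 0.0409), and the log2 fold change in P1MH was -0.77 (SE 0.25, limma adjusted p = 0.0743). The P3MH call was lost with median-ratio rescaling (limma adjusted p = 0.0748), without any single WT library (limma adjusted p = 0.105 to 0.151) and in 7 further alternatives. The locus is therefore close to the threshold in both lines.

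LOC_Os01g16140, on the plus strand at 9114002 to 9114253, begins 50.03 kb after RBP-P and differed between the lines. It had 9.90, 7.94 and 7.003 RPKM in the WT libraries, 9.47, 9.83 and 8.52 in the P1MH libraries, and 28.2, 32.1 and 22.6 in the P3MH libraries. The P3MH libraries stood above all others, while P1MH and WT overlapped. The values stand for 12.5 to 17 reads in each WT library, 14 to 16 in P1MH and 42 to 49 in P3MH. It rose by 1.62 on the log2 scale in P3MH (SE 0.16, limma adjusted p = 4.1e-05), and the log2 fold change in P1MH was 0.16 (SE 0.16, limma adjusted p = 0.607). The difference of P1MH from P3MH was -1.47 (SE 0.16, limma adjusted p = 0.0117). The next locus, LOC_Os01g16146, begins 323 bases on, and each mutant line overlapped WT there, while the lines did not overlap each other. It had 13.1, 11.2 and 7.90 RPKM in the WT libraries, 9.99 to 12.3 in the P1MH libraries and 7.58 to 9.65 in the P3MH libraries.

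LOC_Os01g15780, on the minus strand at 8885505 to 8892462, lies 178 kb before RBP-P and rose in both lines. It had 4.21, 4.25 and 4.50 RPKM in the WT libraries, 10.5, 9.86 and 7.23 in the P1MH libraries, and 9.29, 10.2 and 8.69 in the P3MH libraries. The WT libraries were close together and all 6 mutant libraries were far above them. The means were 4.32 ± 0.155, 9.21 ± 1.74 and 9.41 ± 0.788 RPKM (SD, n = 3 each). It rose by 0.93 on the log2 scale in P1MH (SE 0.16, limma adjusted p = 0.00338) and by 0.97 in P3MH (SE 0.16, limma adjusted p = 0.00343). P1MH differed from P3MH by -0.04 (limma adjusted p = 0.947). Both calls held under all 17 alternatives.

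Its neighbour LOC_Os01g15770, on the opposite strand and 97 bases away, had a mean below the testing limit. It had 1.16, 0.820 and 1.49 RPKM in the WT libraries, 0.449, 0.272 and 0.269 in the P1MH libraries, and 0.542, 0.579 and 0.357 in the P3MH libraries. These stand for 28 reads over the WT libraries, 7 over P1MH and 11 over P3MH. No mutant library reached the lowest WT library, the opposite order to LOC_Os01g15780. Whether counting used strand is not given in the sources used here.

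LOC_Os01g16550, on the minus strand at 9394361 to 9396460, lies 330.4 kb after RBP-P. It had 19.1, 19.4 and 20.6 RPKM in the WT libraries, 13.7, 11.3 and 14.7 in the P1MH libraries, and 14.2, 12.6 and 12.5 in the P3MH libraries. All mutant libraries lay below the WT libraries, which were close together. It fell by 0.55 on the log2 scale in P1MH (SE 0.14, limma adjusted p = 0.026) and by 0.56 in P3MH (SE 0.14, limma adjusted p = 0.0349). Both calls were lost with median-ratio rescaling, at log2 fold changes of -0.44 and -0.42 (limma adjusted p = 0.0735 and 0.117). They were also lost without any single WT library (limma adjusted p = 0.0622 to 0.107 in P1MH and 0.090 to 0.139 in P3MH). In all, the P1MH call held in 11 of 17 alternatives and the P3MH call in 6, being lost also without any single P3MH library (limma adjusted p = 0.0509 to 0.103). The P1MH call was lost without the second P1MH library (limma adjusted p = 0.0777).

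**Figure D4:**
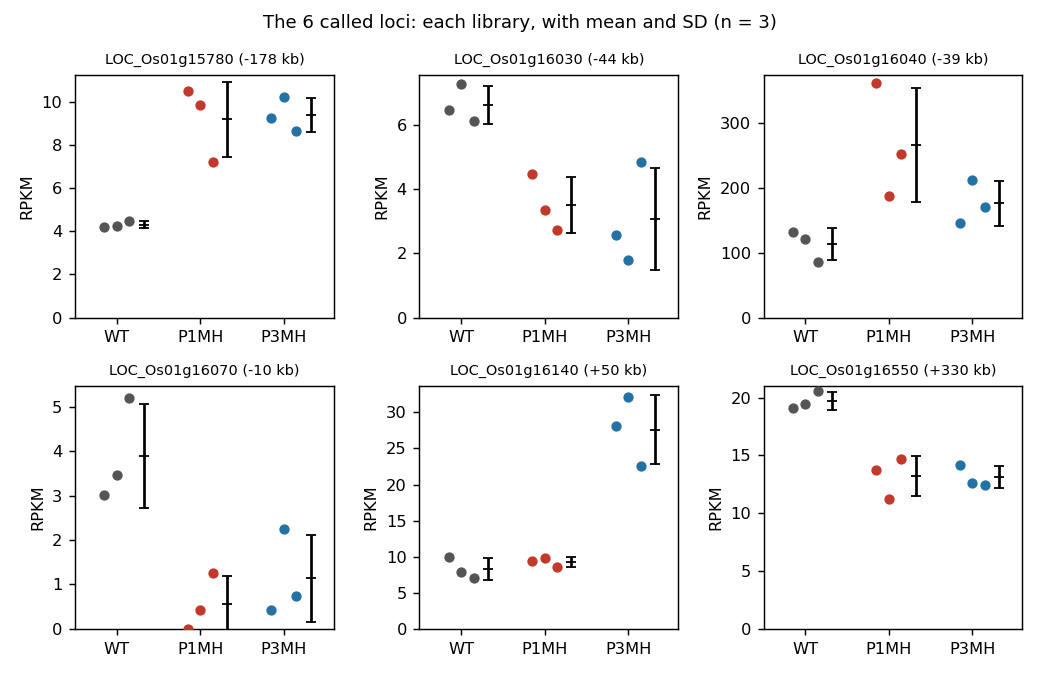
RPKM (vertical axes, linear, starting at 0) of the 6 called members in each library of WT, P1MH and P3MH, with points for libraries and lines for the mean and its SD. LOC_Os01g15780 is higher in both mutants (4.32 in WT, 9.21 in P1MH and 9.41 in P3MH), while LOC_Os01g16140 is higher in P3MH (27.6 RPKM) than in WT (8.28 RPKM) and P1MH (9.27 RPKM).

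Beyond the called members, the loci next to RBP-P varied. Of the 5 before it, LOC_Os01g16050 and LOC_Os01g16060 were too low to test, at means of 0.119 and 0.497 RPKM in WT. LOC_Os01g16080, 6.13 kb before RBP-P, had 17.8 ± 1.83 RPKM in the WT libraries, 19.8 ± 10.8 in the P1MH libraries and 17.5 ± 5.79 in the P3MH libraries (SD, n = 3 each). Its groups overlapped, with log2 fold changes of 0.02 and -0.07. Of the 5 after it, LOC_Os01g16100 was lowest against WT, at -0.68 and -0.71 on the log2 scale, short of the threshold (limma adjusted p = 0.157 and 0.183). It had 5.03, 6.14 and 7.40 RPKM in the WT libraries, 3.55, 4.37 and 2.57 in the P1MH libraries, and 2.28, 2.44 and 6.28 in the P3MH libraries, so the third P3MH library lay within the WT range. LOC_Os01g16110, LOC_Os01g16124 and LOC_Os01g16130 had log2 fold changes of -0.34, 0.40 and 0.24 in P1MH and -0.22, 0.14 and 0.01 in P3MH. LOC_Os01g16120 was not tested, at 0.191 RPKM in the WT libraries, 0.584 in the P1MH libraries and 0.0882 in the P3MH libraries.

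Across the window, 8 tested members (13.3%) were lower and 3 (5%) higher in all 6 mutant libraries than in all 3 WT libraries. Of all tested loci 10.9% were lower and 3.96% higher in this way, and on the rest of chromosome 1 10.3% and 4.28%, so the members' shares lay near the background. The higher ones were LOC_Os01g15780, LOC_Os01g16040 and CAM1-1. Of the lower ones that were not called, LOC_Os01g16650, 382 kb after RBP-P, had 1.32, 2.10 and 3.89 RPKM in the WT libraries, 0.518 to 1.05 in the P1MH libraries and 0.557 to 1.04 in the P3MH libraries. Its log2 fold changes were -0.89 and -0.88 (limma adjusted p = 0.0542 and 0.0775), and the WT libraries differed widely among themselves. LOC_Os01g15480 had log2 fold changes of -0.60 and -0.51, and LOC_Os01g15390 had -0.64 and -0.46. Neither passed the test in either line. LOC_Os01g15660 had -0.58 and -0.44 (limma adjusted p = 0.0542 and 0.171), with 3.15 to 4.33 RPKM in the WT libraries. It was called in P1MH when the fit used no trend and no robust moderation. The remaining lower one, LOC_Os01g16450, was called in P1MH only without the second P1MH library.

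Several members had a larger log2 fold change in 1 line. In P1MH, LOC_Os01g15900 had -0.58 (limma adjusted p = 0.0759) and LOC_Os01g16260 had -0.60 (limma adjusted p = 0.11), beside -0.19 and 0.20 in P3MH. In P3MH, LOC_Os01g15610 had -0.64 (limma adjusted p = 0.16) and LOC_Os01g15970 had -0.63 (limma adjusted p = 0.0923), beside -0.09 and -0.37 in P1MH. Their differences between the lines were -0.40, -0.80, 0.55 and 0.26 in the order named, and none passed the test.

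None of the 4 most abundant members after LOC_Os01g16040 was called. LOC_Os01g16640 had 66.9 ± 6.08 RPKM in the WT libraries, 49.1 ± 11.2 in the P1MH libraries and 49.96 ± 5.93 in the P3MH libraries (SD, n = 3 each; log2 fold changes -0.46 and -0.42, limma adjusted p = 0.113 and 0.184). LOC_Os01g15630 had 47.5 ± 3.88, 49.0 ± 8.22 and 42.8 ± 4.44 RPKM, and LOC_Os01g15600 had 44.6 ± 1.70, 42.2 ± 4.80 and 40.7 ± 3.12. The last of these, OsC3H6, is a CCCH zinc finger protein with 38.3 ± 0.437, 47.7 ± 0.815 and 40.8 ± 7.62 RPKM. Its P1MH libraries all lay above WT, at a log2 fold change of 0.31 (limma adjusted p = 0.201).

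For 10 members a gene name could be matched by hand and checked against RefSeq (ASM3414082v1), and none of these was called. CAM1-1, which encodes the calcium sensor calmodulin, had 14.0 ± 1.22 RPKM in the WT libraries, 18.5 ± 0.847 in the P1MH libraries and 19.1 ± 2.92 in the P3MH libraries (SD, n = 3 each). Its log2 fold changes were 0.39 and 0.42 (limma adjusted p = 0.115 and 0.122), and it passed in P1MH with quantile normalization (limma adjusted p = 0.0473). Reads may be shared with near-identical calmodulin genes. GYRB, a DNA gyrase subunit of organelles, had 6.10 ± 1.37 RPKM in the WT libraries, 3.94 ± 0.623 in the P1MH libraries and 4.61 ± 0.435 in the P3MH libraries. Its log2 fold changes were -0.51 and -0.32 (limma adjusted p = 0.106 and 0.351). OC-XII, a cystatin that inhibits cysteine proteases, had log2 fold changes of 0.32 and 0.15, and it too passed in P1MH with quantile normalization (limma adjusted p = 0.0456). ONAC074, a NAC transcription factor, had -0.35 and -0.15. OsRPN11, the deubiquitinase of the proteasome lid, had -0.24 and -0.17.

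Of the other named members, PRXIIF, a mitochondrial peroxiredoxin, had log2 fold changes of 0.21 in P1MH and -0.18 in P3MH. ARP6, an actin-related subunit of the chromatin remodelling complex SWR1, had 0.07 and -0.14, and OsC3H5, another zinc finger protein, had 0.01 and -0.19. RAA1, linked to root growth, was too low to test: it had 0.164, 0.149 and 0.632 RPKM in WT, was listed at 0 in all P1MH libraries, and had 0.346 RPKM in 1 P3MH library.

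Members switched between genotypes were sought among the low loci as well. No tested member was listed at 0 throughout 1 genotype. Below the testing limit, RAA1 was above 0 in all WT libraries and at 0 in P1MH, from 6 reads in all. LOC_Os01g16740 was above 0 in all P1MH libraries and at 0 in WT, from 4, 1 and 1 reads. LOC_Os01g15540 was above 0 in all P1MH libraries and at 0 in P3MH, from 1, 2 and 2 reads. Each pattern held for 1 of the 140 members, 0.714%, beside 0.532%, 0.25% and 0.141% of the remaining loci of chromosome 1 in the order named. The read totals are too small for a difference to be read at this depth. LOC_Os01g15830, also untested, had 0.782, 1.47 and 1.69 RPKM in the WT libraries, 1.14, 0.103 and 0.204 in the P1MH libraries, and 0.925, 0.440 and 1.08 in the P3MH libraries, and its groups overlapped.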

How the data were processed

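Per the labels' protocols, total RNA was made into libraries with the ScriptSeq v2 kit. Per the file headers, the deposited table holds RPKM for 55986 loci in 9 libraries, as the authors computed it, and places each locus by chromosome and region. No aligner, counting tool, strand setting or build is given in the sources used. All value columns were matched to a library, and 0 were left unused. Members and lists were chosen with earlier results of these data known.

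Loci that averaged 1 RPKM or more across the 9 libraries (16064) were fitted on log2(RPKM + 1) with limma 3.58.1 in R 4.3.3, with trend and robust moderation, all 9 libraries in 1 fit and no covariate. p-values were adjusted by Benjamini-Hochberg over all 16064, and an adjusted p under 0.05 is a call. The fit was checked on simulated data, with planted changes larger than most of those called here and placed only in loci above a minimum level. It is therefore no check of low loci or of calls close to the threshold. Library totals and read numbers were recovered from the steps between low values of 1-exon loci, and are used as description only; exon lengths were fitted for 96 members, 45 of them with a single solution, taking lengths that give whole reads in the mutant libraries first.

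Named members are those called in any comparison, the 10 with the largest log2 fold change in each line, the 5 most abundant, the 5 on either side of RBP-P, and untested ones with a mean of 1 RPKM in a genotype. These make 27, and the members with a checked name were added, as were neighbours and edge loci. A few more are named for calls under an alternative or for lying below WT in all mutant libraries. A name was kept when its RefSeq gene had 0.8 to 1.25 times the span and lay within 2 kb of the offset of RBP-P, which held for 10 of 11. Libraries with the same number did not deviate together, so the main fit did not pair them. This cannot show whether they were handled together. Alternatives were other scalings, filters, pseudocounts and moderation, 2-group fits, a replicate block and each library left out.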

Additional observations from a re-analysis of the deposited data

Results flagged for a closer look

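LOC_Os01g16140 was picked out because its change against WT differed between the mutant lines in a direct test. The log2 fold change of P1MH against P3MH was -1.47 (SE 0.16, limma adjusted p = 0.0117), with all 3 P3MH libraries above all other libraries. It did not pass the test without the filter on low loci (limma adjusted p = 0.136) or when the first P1MH, the first P3MH or the second P3MH library was left out (limma adjusted p = 0.0628, 0.054 and 0.0521), while its size stayed between -1.48 and -1.35 in these fits.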

How the results depend on the processing

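Over 17 alternatives, each changing 1 choice and run where the locus passed the filter, the 73 log2 fold changes recomputed gave 1122 values with the same direction and call, 34 that lost a call, 16 that gained one and 34 that changed sign. No called value changed sign. The sign changes concern 16 uncalled values, the largest of them 0.20 for LOC_Os01g16260 in P3MH and 0.21 for LOC_Os01g16030 between the lines. With 1 library left out, they ran in P1MH from -0.069 to 0.080 for OsC3H5 (LOC_Os01g15350), -0.17 to -0.021 for LOC_Os01g15600, -0.19 to -0.025 for LOC_Os01g15610, -0.044 to 0.18 for LOC_Os01g15630, -0.37 to 0.30 for LOC_Os01g16080 and -0.019 to 0.14 for ARP6 (LOC_Os01g16414). In P3MH they ran from -0.066 to 0.19 for OsC3H6 (LOC_Os01g15460), -0.19 to -0.098 for LOC_Os01g15600, -0.28 to 0.19 for LOC_Os01g16080, -0.067 to 0.094 for LOC_Os01g16130, -0.033 to 0.38 for LOC_Os01g16260 and -0.29 to -0.027 for ARP6. Between the lines they ran from -0.14 to 0.11 for LOC_Os01g15780, -0.031 to 0.50 for LOC_Os01g16030, -0.12 to 0.17 for RBP-P and -0.067 to 0.11 for LOC_Os01g16550. Median-ratio rescaling gave 0.027 for LOC_Os01g15600 and 0.0055 for LOC_Os01g15610 in P1MH, 0.0049 for LOC_Os01g15600 and 0.063 for LOC_Os01g16080 in P3MH, and -0.018 for LOC_Os01g16550 between the lines. Quantile normalization gave 0.072 for LOC_Os01g15600 and 6.4e-05 for LOC_Os01g15610 in P1MH, 0.031 for LOC_Os01g16080 and 0.012 for ARP6 in P3MH, and -0.0017 for LOC_Os01g16550 between the lines.

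Without the filter on low loci, 2 members were called in P3MH and 0 between the lines. At a mean of at least 5 RPKM, 61 of 1233 remaining loci of chromosome 1 were called in P3MH, a share of 4.95% beside 4.97% with the usual filter, and with only P1MH and P3MH fitted 1 was called between them. Leaving out 1 library gave 1 to 6, 2 to 5 and 0 to 1 members called in P1MH, in P3MH and between the lines, and 65 to 185, 35 to 131 and 0 to 24 remaining loci. The 24 came without the third P1MH library. The cause of the other changes was not tested.

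A replicate block in the same fit called 4, 3 and 1 members and 151, 82 and 0 remaining loci. Correlations of same-numbered libraries ran from -0.307 to 0.112 (median -0.0037), beside -0.209 to 0.295 (median 0.0015) for different numbers. Such correlations cannot show whether same-numbered samples were handled together. The median log2 fold change of all tested loci was -0.10 in P1MH and -0.13 in P3MH, and -0.0051 and -0.0084 with median-ratio rescaling, so directions close to these values depend on scaling. Depth limits the low members: 3 reads on 1 kb are 0.400 to 0.512 RPKM.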

Other observations

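The tile of chromosome 1 with the highest share of called loci, from 2 to 3 Mb, was looked at after its values were seen. Of its 61 tested loci, 4 were listed at 0 in all WT libraries and above 0 in all 6 mutant libraries, and 1 showed the reverse. LOC_Os01g05530 was listed at 0 in WT and had 7.67 to 10.4 RPKM in P1MH and 8.85 to 11.1 in P3MH. LOC_Os01g05289 was listed at 0 in WT and had 9.95 to 12.8 RPKM in P1MH and 8.51 to 12.6 in P3MH. LOC_Os01g05585 had 14.3, 17.1 and 24.3 RPKM in WT and was listed at 0 in every mutant library. These loci lie more than 6 Mb from RBP-P. They were selected for the same pattern in both lines.

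On all of chromosome 1 outside the window, 6 of 2194 tested loci were switched in this way, and the sixth, LOC_Os01g03410, lies from 1 to 2 Mb. Among the 60 tested members of the window there were 0, and among all 16064 tested loci 62, which is 0.386%.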
